A study of Mus musculus with 4 samples.

Results

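The antioxidant genes described here are the enzymes of glutathione synthesis and use, the thioredoxin and peroxiredoxin systems, and the transcription factor NRF2 with several of its classic targets. They were taken as every probe whose gene symbol in the array's annotation belongs to these families, which gave 74 genes, 1 probe each, of the 16390 genes named among 23473 probes on the array. The cells were NSCL61, a mouse glioma-initiating line grown from neural stem cells of newborn C57BL6 brain. As background, the line was made by expressing an oncogenic HRas in p53-deficient cells, so Eva1 shRNA and control cells share both changes. The Eva1 shRNA cells carried a vector for a short hairpin RNA against Eva1, an adhesion protein gene now named Mpzl2, and the control cells, per the series title, a control hairpin. Protocols in the labels give hygromycin selection, for 2 weeks in one field and 1 week in another, and do not say whether the lines are clones or pools. Each group has 2 one-colour arrays, which nothing assigns to separate cultures, and the p-values therefore rest on array-to-array spread that may be technical.

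Cells handle peroxides through a pair of parallel thiol systems. Glutathione is made by glutamate-cysteine ligase and glutathione synthetase, spent by glutathione peroxidases and S-transferases, and returned to its reduced form by glutathione reductase, while thioredoxin serves the peroxiredoxins and is recharged by thioredoxin reductase. The transcription factor NRF2 (gene Nfe2l2) is held back by KEAP1 and, when released, binds antioxidant response elements together with small MAF proteins. Genes of both thiol systems are among its known targets, and the programme is best known for its part in resistance to oxidants and to drugs in tumours.

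The hairpin's target was lower. Mpzl2 had intensities of 8.20 and 6.21 in Eva1 shRNA cells, against 55.0 and 54.4 in control cells, a log2 change of -3.12 (SE 0.16; limma, adjusted p = 0.00105), or -1.71 with 16 intensity units added before log2. Values were present for 21513 to 21842 probes on the Eva1 shRNA arrays and 20662 to 20934 on the control arrays. Every array has a median intensity near 25, and probes blank on some arrays rarely exceeded 5.09 (the highest of the 95th percentiles of such probes by array). Of 10 neural stem cell markers 8 have a probe and 7 were tested, with a median log2 change of -0.31. Vim read 26086 and 20267 in Eva1 shRNA cells and 16408 and 15332 in control cells (0.33, uncalled). Nes read 435 and 429.9 in Eva1 shRNA cells and 532 and 537 in control cells (-0.47, uncalled). Fabp7 was called lower (-1.15), and Olig2 was dim and uncalled (-0.66). Msi1 (-0.24), Pax6 (-0.31) and Hes5 (0.03) were uncalled too, and Prom1 was blank on 1 control array. Summed over 5 genes, fibroblast and mural markers read 1440.4 to 1633 in Eva1 shRNA cells and 691 to 813 in control cells, mostly from Col3a1. Of the 5, Col1a1 overlapped between the groups (log2 change -0.15, adjusted p = 0.759). Col3a1 lay higher without a call (0.50, adjusted p = 0.0728). The other 3 were called higher, Acta2 by a log2 change of 6.22. With any array removed Acta2 alone of these stayed called, and Col1a2 and Pdgfrb did not (adjusted p up to 0.125 and 0.202, both with the first Eva1 shRNA array removed). The part of these markers in the results below was not tested, and in bulk RNA fewer cells of a type and less RNA per cell cannot be told apart. Of the neuron markers Tubb3 alone was called (higher, a call lost in 3 of the 4 cases of an array left out), and none of the astrocyte and oligodendrocyte markers was, with Gfap, Aqp4 and Slc1a3 blank on at least 2 arrays each. Among defining myeloid and endothelial markers, Ptprc was blank on both control arrays, Itgam on both Eva1 shRNA arrays and Pecam1, Cdh5, Tek and Cldn5 on at least 1 array. The 5 myeloid markers summed to 155 to 162 in Eva1 shRNA cells and 212 to 239 in control cells. Of them Cd68 was called lower (77.3 and 89.3 in Eva1 shRNA cells, 181 and 148 in control cells), without a call when either of 2 arrays was left out (adjusted p up to 0.0648). Csf1r lay the other way without overlap or a call (53.0 and 44.5 in Eva1 shRNA cells, 34.0 and 38.0 in control cells, log2 change 0.25), and Aif1 overlapped. The 5 endothelial markers summed to 17.9 to 23.7 in Eva1 shRNA cells and 20.2 to 21.6 in control cells.

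Antioxidant genes went both ways in Eva1 shRNA cells. Of the 68 with a value on all 4 arrays, 16 were higher, 9 were lower and 43 did not pass the test (limma on quantile-normalised log2 intensities, Benjamini-Hochberg over all 13765 genes, threshold 0.05). The higher members made up 23.5% of the tested ones, beside 12.5% of all genes tested, and the lower members 13.2%, beside 13.5%. The share of lower members therefore lay at the background. The members' probes read above most others, with a median normalised log2 intensity of 7.83, against 5.45 over all genes, and brighter probes are called more often. Among genes whose mean level exceeded the array median, 40.4% of members were called in either direction, beside 31.2% of all such genes. There 28.1% of the 57 members were higher, beside 15.2% of all such genes, and 12.3% were lower, beside 16%. Family shares below are set beside the 26% of all genes called, and for bright families 31.2% is the closer background. Groups did not overlap for 53 of the 68 members (77.9%), beside 66.7% of all genes. The median log2 change was 0.08 over the members and -0.01 over all genes. These counts fell when any array was left out: with the first Eva1 shRNA array removed, 8 members were higher and 3 lower, with the second 8 and 5, with the first control array 8 and 3, and with the second 10 and 6.

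**Figure D1:**
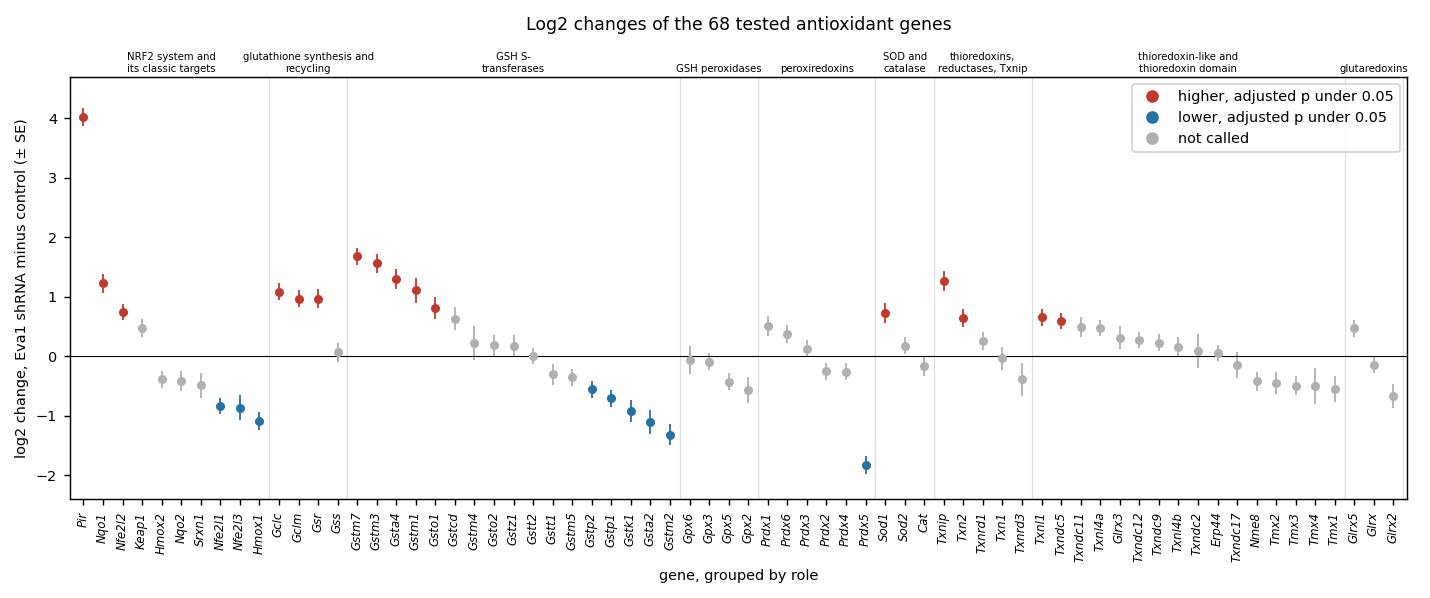
Log2 change (Eva1 shRNA minus control, vertical axis, with SE bars) of the 68 tested antioxidant genes, grouped by role along the horizontal axis; red points were higher and blue points lower at adjusted p under 0.05, and grey points were not called. Pir stands far above the others at 4.02, the synthesis and recycling genes Gclc, Gclm and Gsr lie together near 1, and the S-transferases split, with 5 higher and 5 lower.

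**Figure D2:**
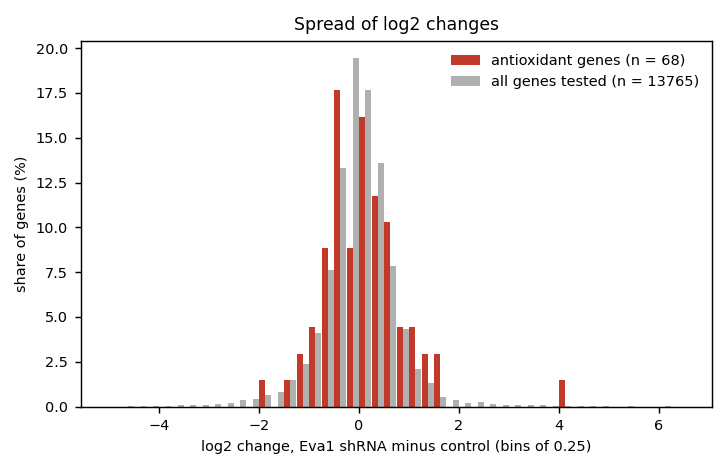
Share of genes (vertical axis, percent) by log2 change in bins of 0.25 (horizontal axis), in red for the 68 antioxidant genes and in grey for all 13765 genes tested. The members spread somewhat more widely than all genes, with middle quartiles from -0.42 to 0.53 against -0.36 to 0.35, and a single member, Pir, lies beyond 2.

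The 10 genes grouped here with the NRF2 system are regulators, several classic targets and the related Hmox2 and Nqo2. Of them 3 were higher, 3 lower and 4 not called (60% called, beside 26% of all genes and 31.2% of genes above the array median). Pir, which encodes pirin, an iron-binding nuclear protein whose human gene is an NRF2 target, moved most. Its intensities were 204 and 205 in Eva1 shRNA cells, against 11.5 and 10.5 in control cells. On the normalised log2 scale it averaged 7.59 ± 0.06 in Eva1 shRNA cells and 3.57 ± 0.15 in control cells (SD, n = 2 each), 16.2-fold higher (log2 change 4.02, SE 0.15, adjusted p = 0.000874), the rise of rank 10 among all genes tested. The control values lie under the array median but above the range of most partly blank probes, and with 16 units added the log2 change was 2.90. Nqo1, the NADPH-dependent quinone reductase often used to read NRF2 activity, had 342 and 355 in Eva1 shRNA cells and 145 and 118 in control cells. That is 2.34-fold higher, with a log2 change of 1.23 (SE 0.16, adjusted p = 0.00679). Both genes kept their calls whichever array was left out.

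The regulators themselves moved in different directions. Nfe2l2, the gene for NRF2, had 517 and 508 in Eva1 shRNA cells and 262 and 279.8 in control cells, a higher level (log2 change 0.75, SE 0.14, adjusted p = 0.0168). Keap1, whose product marks NRF2 for destruction, had 192 and 198 in Eva1 shRNA cells and 116 and 132 in control cells, with a log2 change of 0.48 that did not pass (adjusted p = 0.068), although the groups did not overlap. Nfe2l1, a relative known for driving proteasome genes, was lower at 314 and 322 in Eva1 shRNA cells, against 509 and 500.3 in control cells (log2 change -0.83, SE 0.14, adjusted p = 0.012). The third relative, Nfe2l3, was called lower (-0.86, adjusted p = 0.0377), but at intensities of 3.81 and 2.42 in Eva1 shRNA cells and 4.45 and 5.32 in control cells, where many probes are blank. Its change shrank to -0.17 with 16 units added and lost the call there (adjusted p = 0.204), under the authors' own scaling (0.103), after blanks were filled (0.0998) and with an intensity trend in the variance (0.0738). When an array was left out, the calls of Nfe2l2 and Nfe2l1 were kept without control array 2 and lost in the other cases, with adjusted p up to 0.0924 for Nfe2l2 (without Eva1 shRNA array 2) and 0.0797 for Nfe2l1 (without Eva1 shRNA array 1), and that of Nfe2l3 was lost in 3 cases (up to 0.14, without Eva1 shRNA array 2).

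Among the remaining genes grouped with the NRF2 system, Hmox1 was lower and Srxn1, Hmox2 and Nqo2 were not called. Hmox1, the inducible heme oxygenase gene and a well-known NRF2 target, had 1391 and 1579 in Eva1 shRNA cells and 2899.6 and 2771 in control cells, 2.13-fold lower (log2 change -1.09, SE 0.15, adjusted p = 0.00762; without Eva1 shRNA array 1 adjusted p = 0.0544). Srxn1, whose product repairs over-oxidised peroxiredoxins, had 300.0 and 368 in Eva1 shRNA cells and 478 and 361 in control cells, with overlapping deposited values and no call (-0.49, adjusted p = 0.139). The constitutive Hmox2 had 688 and 621 in Eva1 shRNA cells and 824 and 734 in control cells, and Nqo2, a quinone reductase that does not use NADPH, 275 and 328 in Eva1 shRNA cells and 369 and 339 in control cells. Neither passed (log2 changes -0.39 and -0.41, adjusted p = 0.105 and 0.125). The normalised groups of these 3 uncalled genes did not overlap, with control cells higher, beside 66.7% of all genes without overlap in either direction.

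**Figure D3:**
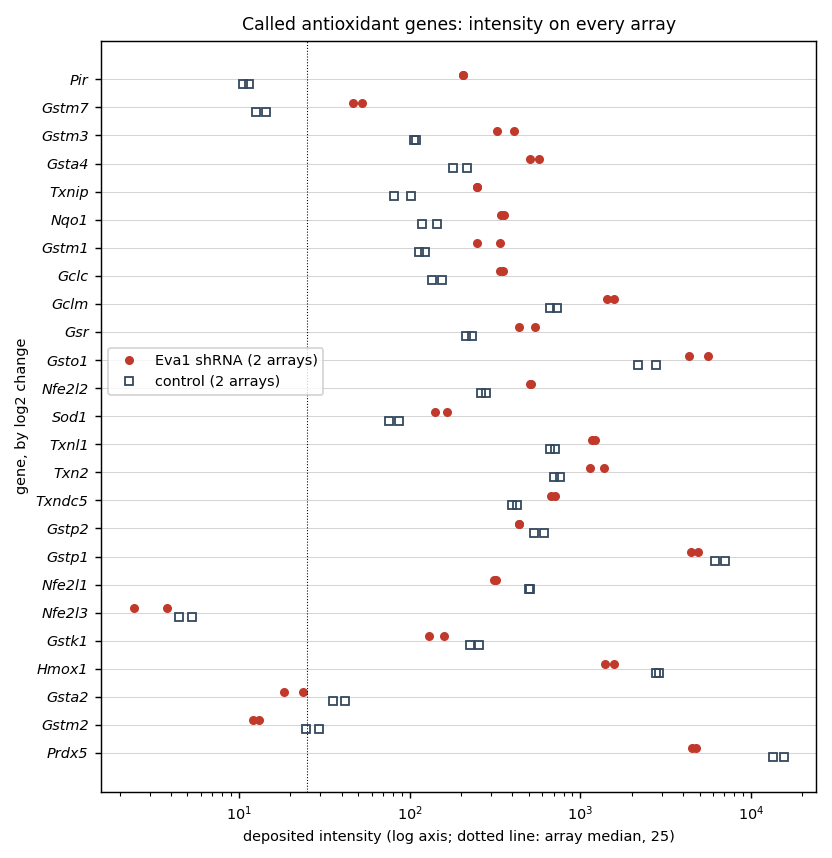
Deposited intensity (horizontal log axis) of the 25 called antioxidant genes on every array, with Eva1 shRNA arrays as filled circles drawn above control arrays as open squares, and genes ordered by log2 change; the dotted line marks the array median of 25. The symbols of the groups do not overlap for any of these genes, which follows largely from picking them by their calls. Over all genes, 66.7% did not overlap on the normalised scale. Nfe2l3 is the single gene with all 4 values far left of the line.

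Promoter windows from RefSeq (build GRCm38.p6, 250 bases before to 50 after a transcription start) were found for 65 of the 74 symbols and were searched for the core letters of the antioxidant response element, TGACNNNGC, on both strands. Of all 32851 windows, 12.4% hold the core. Windows of the members called higher hold it in 6 of 16 (37.5%), those of members called lower in 0 of 12, and those of uncalled members in 8 of 56 (14.3%). By gene, 6 of the 12 higher members with a window had a match: Pir, Gclm, Gstm7, Nfe2l2, Sod1 and Txndc5. Uncalled members with a window were 39 genes, with the core in 8 of their windows. No share by gene was computed over all genes, so the 12.4% by window is no background for these counts by gene. A gene with several windows, such as Txndc5, has more chances of a match. Of the 8 lower members with a window, 0 had a match, and several of the lower windows belong to Nfe2l1 alone. The Nqo1 window lacks the core. No window was found for Hmox1 among the lower members, or for Gclc, Gsr, Gsta4 and Txnl1 among the higher. Whether matches differ between higher and lower members was not tested. A match is a description of letters and not a site, and elements farther from the start are outside these windows. Printed here are windows of the 3 members that rose most and the 2 that fell most among those with a brighter group mean above the array median, and of Gclm, which was added after its values were seen because it holds the core. All are 5′ to 3′ on the gene's strand, with matches to the core in capitals, and for a gene with several windows the one with most matches is shown. The windows lie at chrX:164269181-164269480 (plus strand), chr3:122245307-122245606 (plus strand), chr3:107931565-107931864 (minus strand), chr3:107969125-107969424 (minus strand), chr3:107986371-107986670 (minus strand) and chr19:6910057-6910356 (minus strand).
Pir: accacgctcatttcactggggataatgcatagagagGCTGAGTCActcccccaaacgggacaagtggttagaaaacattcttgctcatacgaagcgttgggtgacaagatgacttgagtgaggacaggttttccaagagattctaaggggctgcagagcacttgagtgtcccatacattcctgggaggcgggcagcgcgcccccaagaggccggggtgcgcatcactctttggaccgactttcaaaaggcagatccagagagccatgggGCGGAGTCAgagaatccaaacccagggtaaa
Gclm: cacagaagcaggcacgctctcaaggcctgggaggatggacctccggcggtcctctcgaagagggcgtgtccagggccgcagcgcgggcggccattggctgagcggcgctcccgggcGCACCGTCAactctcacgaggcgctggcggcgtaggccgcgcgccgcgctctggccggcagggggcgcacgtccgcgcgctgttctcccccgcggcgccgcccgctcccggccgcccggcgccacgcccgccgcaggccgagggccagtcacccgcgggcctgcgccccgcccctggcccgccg
Gstm7: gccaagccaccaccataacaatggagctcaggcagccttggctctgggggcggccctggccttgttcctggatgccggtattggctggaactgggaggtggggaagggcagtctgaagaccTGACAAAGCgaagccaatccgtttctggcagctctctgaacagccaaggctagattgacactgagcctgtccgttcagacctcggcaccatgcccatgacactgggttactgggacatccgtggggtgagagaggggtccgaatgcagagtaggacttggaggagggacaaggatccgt
Gstm3: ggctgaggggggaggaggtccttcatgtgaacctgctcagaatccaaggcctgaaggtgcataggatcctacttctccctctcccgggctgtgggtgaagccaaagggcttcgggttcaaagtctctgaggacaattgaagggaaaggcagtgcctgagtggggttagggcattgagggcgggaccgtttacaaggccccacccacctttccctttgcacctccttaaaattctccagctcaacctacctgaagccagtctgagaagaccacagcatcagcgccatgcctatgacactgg
Gstm2: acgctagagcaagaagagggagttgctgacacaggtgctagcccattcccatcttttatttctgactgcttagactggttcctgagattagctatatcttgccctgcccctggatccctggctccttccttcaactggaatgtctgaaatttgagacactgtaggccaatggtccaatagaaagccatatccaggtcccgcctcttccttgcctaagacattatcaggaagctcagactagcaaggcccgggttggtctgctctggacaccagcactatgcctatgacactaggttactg
Prdx5: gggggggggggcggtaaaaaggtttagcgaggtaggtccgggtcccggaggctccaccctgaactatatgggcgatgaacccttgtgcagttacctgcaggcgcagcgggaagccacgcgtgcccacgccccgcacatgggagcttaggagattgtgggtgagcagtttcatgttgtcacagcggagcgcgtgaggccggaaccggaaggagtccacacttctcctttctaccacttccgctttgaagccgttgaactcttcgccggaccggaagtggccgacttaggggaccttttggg
The Pir window holds the core in 2 places, beginning 214 bases before and 19 bases after the first transcribed base. The upstream match overlaps TGANTCA, the palindromic letters bound by AP-1 factors, an overlap seen in 149 of all windows. Gclm holds 1 match beginning 134 bases upstream and Gstm7 1 match beginning 129 bases upstream, in the more downstream of its 2 windows. Neither Gstm3 nor its neighbour Gstm2 has the core in these letters, although the first was higher and the second lower, and Prdx5 has none.

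Of the 4 genes of glutathione synthesis and recycling, 3 were higher and 0 lower. The 75% called stand beside 26% of all genes and 31.2% of genes above the array median. Gclc, the catalytic subunit of glutamate-cysteine ligase, had 355 and 341 in Eva1 shRNA cells and 136 and 155 in control cells (2.12-fold higher, log2 change 1.08, SE 0.14, adjusted p = 0.0065). Gclm, the regulatory subunit of the same ligase, had 1570.5 and 1443 in Eva1 shRNA cells and 735 and 666 in control cells (1.96-fold higher, 0.97, SE 0.14, adjusted p = 0.00841). Gsr, glutathione reductase, had 546 and 437 in Eva1 shRNA cells and 215 and 231 in control cells (1.95-fold higher, 0.97, SE 0.16, adjusted p = 0.012). The log2 changes of the ligase subunits and the reductase thus span less than the SE of any of them. Gss, the synthetase of the second step, had 151 and 156 in Eva1 shRNA cells and 139.9 and 117 in control cells and was not called (0.07, adjusted p = 0.775). The call of Gclc held whichever array was left out, that of Gclm was lost without either Eva1 shRNA array (adjusted p = 0.0612 and 0.0508, without array 1 and array 2), and that of Gsr without control array 1 (0.058) or Eva1 shRNA array 1 (0.0745).

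The glutathione S-transferases, which attach glutathione to reactive compounds, split evenly. Of 19 probes, 17 were tested, 5 were higher, 5 lower and 7 not called. The 58.8% called stand beside 26% of all genes and 31.2% of genes above the array median. The mu class gave both extremes. Gstm7 had 52.5 and 46.8 in Eva1 shRNA cells and 12.5 and 14.4 in control cells (3.21-fold higher, log2 change 1.68, SE 0.14, adjusted p = 0.00219) and 1.04 with 16 units added, its control values lying under the array median. Gstm3 had 409 and 325 in Eva1 shRNA cells and 107 and 109 in control cells (1.57, SE 0.16, adjusted p = 0.0034), and Gstm1 249 and 339 in Eva1 shRNA cells and 113 and 123 in control cells (1.11, SE 0.21, adjusted p = 0.0173). Gstm2 went the other way, with 12.1 and 13.0 in Eva1 shRNA cells and 29.5 and 24.7 in control cells (2.5-fold lower, log2 change -1.32, SE 0.18, adjusted p = 0.00683, and -0.71 with 16 units added). Gstm5 had 1270.4 and 1369 in Eva1 shRNA cells and 1586 and 1449 in control cells without a call (-0.35, adjusted p = 0.134), and Gstm4 read 1.79 to 3.32 on all arrays. In the RefSeq gene order of chromosome 3 these genes stand side by side as Gstm5, Gstm7, Gstm6, Gstm3, Gstm2, Gstm1 and Gstm4, so the lower Gstm2 lies between higher Gstm3 and Gstm1. Mu-class genes are close copies, and signal shared between their probes was not tested. Gstm1 lost its call without control array 1 (adjusted p = 0.0813), control array 2 (0.0601) or Eva1 shRNA array 2 (0.0666), and with blank cells filled (0.0634).

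Other classes were divided too. Gsta4, an alpha-class enzyme that clears hydroxynonenal from oxidised lipid, had 576 and 509.5 in Eva1 shRNA cells and 217 and 179 in control cells (2.46-fold higher, log2 change 1.30, SE 0.16, adjusted p = 0.00592) and was called whichever array was left out. Gsta2, of the same class, had 18.4 and 23.8 in Eva1 shRNA cells and 35.6 and 41.9 in control cells (-1.10, SE 0.20, adjusted p = 0.0162; -0.70 with 16 units added). Gsto1, an omega-class enzyme that acts as a thiol transferase, was higher too, with 5622 and 4349 in Eva1 shRNA cells and 2791 and 2176 in control cells (0.81, SE 0.19, adjusted p = 0.0325). In the pi class both members fell. Gstp1 had 4889 and 4473 in Eva1 shRNA cells and 7009 and 6198 in control cells (-0.71, SE 0.15, adjusted p = 0.0228). Its near-identical neighbour Gstp2 had 436 and 437 in Eva1 shRNA cells and 613 and 534 in control cells (-0.55, SE 0.15, adjusted p = 0.0446), and signal shared between the probes of this pair was not tested. Gstk1, the kappa-class enzyme of mitochondria and peroxisomes, had 129.7 and 159 in Eva1 shRNA cells and 256 and 226 in control cells (-0.92, SE 0.18, adjusted p = 0.0202).

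Apart from Gsta4, these calls depended on the arrays used. Those of Gsto1 and Gstp2 were lost whichever array was left out, with adjusted p up to 0.154 and 0.188 (both without Eva1 shRNA array 1). Gstp1 kept its call without control array 2 alone (up to 0.12, without Eva1 shRNA array 2), and Gsta2 and Gstk1 without Eva1 shRNA array 2 alone (up to 0.0742 and 0.104, without Eva1 shRNA array 1). With the authors' scaling Gstp1 and Gstp2 had adjusted p = 0.062 and 0.105. Filling blank cells, which raises the number of genes tested, gave adjusted p = 0.0597 for Gstp2 and Gsta2, 0.0605 for Gstk1 and 0.0835 for Gsto1.

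The uncalled transferases with signal above the array median were Gstcd, Gsto2, Gstz1 and Gstt2, beside Gstm5. Gstcd, a protein with a transferase-like domain, had 49.0 and 36.8 in Eva1 shRNA cells and 20.7 and 27.3 in control cells without overlap (0.63, adjusted p = 0.0695). Gsto2, the neighbour of Gsto1, had 278 and 302 in Eva1 shRNA cells and 197 and 258 in control cells (0.18, adjusted p = 0.497). Gstz1, which also degrades tyrosine products, had 141 and 142 in Eva1 shRNA cells and 125 and 96.3 in control cells, and theta-class Gstt2 47.1 and 41.4 in Eva1 shRNA cells and 38.1 and 39.4 in control cells. The normalised groups of Gsto2, Gstz1 and Gstt2 overlapped. Gstt1 read 5.91 to 7.76 over the arrays, Gstt3 was blank on Eva1 shRNA array 1, and Gsta3 was blank on 1 array of each group.

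None of the 4 glutathione peroxidase genes tested was called, beside 26% of all genes in either direction. Gpx2, Gpx3, Gpx5 and Gpx6 lay between 3.23 and 6.22 on every array, with log2 changes between -0.56 and -0.06 and adjusted p from 0.0824 to 0.878. These values are near the blank range, where probes are called less often, so the lack of calls does not show unchanged expression. No probe carried the symbol Gpx4. The probe for Gpx1, normally the main cytosolic enzyme, was blank on array 2 of each group and read 1.54 and 1.59 on Eva1 shRNA array 1 and control array 1, and that of Gpx7 was blank on Eva1 shRNA array 1. Gpx8, a peroxidase of the endoplasmic reticulum whose probe carries an older clone name and so falls outside the membership rule, had 2432 and 2486 in Eva1 shRNA cells and 2751 and 2885 in control cells (-0.34, adjusted p = 0.142). Under their older clone names Txndc15, Txndc16 and Gstt4 also fell outside the rule, and none of them was called (adjusted p from 0.0606 to 0.325).

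Peroxiredoxins, the abundant thiol peroxidases, had 1 called member of 6, Prdx5 (16.7%, beside 26% of all genes). Prdx5, found in mitochondria, peroxisomes and the cytosol, had 4535 and 4756 in Eva1 shRNA cells and 13414 and 15603 in control cells. It averaged a log2 level of 12.09 ± 0.06 in Eva1 shRNA cells and 13.91 ± 0.14 in control cells (SD, n = 2 each), 3.54-fold lower (log2 change -1.82, SE 0.15, adjusted p = 0.00214), and the call held whichever array was left out. The other 5 members were not called. Prdx1, a cytosolic enzyme and NRF2 target, had 10271 and 9045 in Eva1 shRNA cells and 5139.6 and 6384 in control cells without overlap (0.51, adjusted p = 0.0815). Prdx6, which also has phospholipase activity, had 2989.6 and 3314 in Eva1 shRNA cells and 2318 and 2080.2 in control cells (0.38, adjusted p = 0.125). Both read higher on each Eva1 shRNA array than on either control array, without passing the test. On the normalised scale the groups did not overlap for any of the 6 peroxiredoxins, beside 66.7% of all genes, and uncalled Prdx2 and Prdx4 lay below control. Prdx2, the other main cytosolic member, had 13811 and 11431 in Eva1 shRNA cells and 12784 and 12692 in control cells, mitochondrial Prdx3 698 and 708 in Eva1 shRNA cells and 613 and 550.3 in control cells, and Prdx4 of the endoplasmic reticulum 2502 and 2430.4 in Eva1 shRNA cells and 2587 and 2766 in control cells. Their log2 changes lay between -0.26 and 0.13, with adjusted p from 0.237 to 0.554.

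Among the superoxide dismutases and catalase, Sod1 alone of 3 genes was called (33.3%, beside 26% of all genes). Sod1, the copper and zinc enzyme of the cytosol, had 167 and 141 in Eva1 shRNA cells and 87.3 and 75.8 in control cells (1.66-fold higher, log2 change 0.73, SE 0.16, adjusted p = 0.0287). The call was lost whichever array was left out (up to 0.144, without Eva1 shRNA array 1) and with blank cells filled (0.0625). Sod2, the manganese enzyme of mitochondria, had 1613 and 1654 in Eva1 shRNA cells and 1394 and 1215 in control cells (0.18, adjusted p = 0.399). Cat, the catalase of peroxisomes, had 152 and 147 in Eva1 shRNA cells and 131 and 167 in control cells, with overlapping groups (-0.16, adjusted p = 0.514).

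Here the thioredoxin core means thioredoxins, reductases and Txnip, 5 genes, with 2 higher and 0 lower (40% called, beside 26% of all genes). Of the thioredoxins and reductases among them, Txn2 alone was called. Txnip, whose product binds and inhibits thioredoxin and restrains glucose uptake, had 249 and 249 in Eva1 shRNA cells and 81.0 and 102 in control cells (2.41-fold higher, log2 change 1.27, SE 0.16, adjusted p = 0.00607), and stayed called without any 1 of the arrays. Txn2, the mitochondrial thioredoxin, had 1378 and 1135 in Eva1 shRNA cells and 762 and 701 in control cells (0.64, SE 0.15, adjusted p = 0.0344), a call lost whichever array was left out (up to 0.175, without Eva1 shRNA array 1), with median centring (0.0526) and with blank cells filled (0.0613). On the normalised scale the groups did not overlap for 3 of the 5 genes, beside 66.7% of all genes. Called genes nearly always separate with 2 arrays a group, so this adds nothing to the 2 calls. Txnrd1, the cytosolic reductase and an NRF2 target, had 1106 and 1171 in Eva1 shRNA cells and 816 and 916 in control cells without overlap and without a call (0.26, adjusted p = 0.26). Txn1, the cytosolic thioredoxin, read 43.6 and 32.2 in Eva1 shRNA cells and 29.7 and 37.5 in control cells, and Txnrd3, best known from testis, 254 and 180.4 in Eva1 shRNA cells and 314 and 198 in control cells. Both had overlapping groups (adjusted p = 0.914 and 0.356).

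Thioredoxin-like and thioredoxin domain proteins gave 2 higher, 0 lower and 14 uncalled among 16 tested genes, 12.5% called beside 26% of all genes. Txnl1, a thioredoxin bound to the proteasome, had 1169.6 and 1219 in Eva1 shRNA cells and 710.2 and 662 in control cells (0.65, SE 0.14, adjusted p = 0.026). Txndc5, a disulfide isomerase of the endoplasmic reticulum, had 709 and 673 in Eva1 shRNA cells and 399 and 424 in control cells (0.59, SE 0.14, adjusted p = 0.0322). Either call was lost whichever array was left out, with adjusted p up to 0.136 for Txnl1 (without Eva1 shRNA array 2) and 0.142 for Txndc5 (without Eva1 shRNA array 1). Next came Txndc11, a protein of the endoplasmic reticulum, with 148 and 153 in Eva1 shRNA cells and 83.9 and 105 in control cells (0.49, adjusted p = 0.0801), and the spliceosome protein gene Txnl4a, with 151 and 146 in Eva1 shRNA cells and 95.6 and 92.2 in control cells (0.48, adjusted p = 0.0555). In both the groups did not overlap.

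None of the remaining members of this class was called. Glrx3, annotated under its older thioredoxin-like name, had 3475 and 4402 in Eva1 shRNA cells and 2613 and 3012 in control cells. Txndc12, an oxidoreductase of the endoplasmic reticulum, had 515 and 519.8 in Eva1 shRNA cells and 371 and 386 in control cells, and Erp44, which returns escaped proteins to that compartment, 467 and 449 in Eva1 shRNA cells and 379 and 405 in control cells. For these 3 genes the log2 changes ran from 0.06 to 0.31 without a call. Txndc9 read 60.9 and 52.9 in Eva1 shRNA cells and 43.7 and 42.2 in control cells, Txnl4b 57.6 and 53.3 in Eva1 shRNA cells and 48.4 and 40.1 in control cells, and Txndc17 2455 and 2281 in Eva1 shRNA cells and 2039 and 2830.4 in control cells. Next, 3 transmembrane members of the endoplasmic reticulum lay below control on the normalised scale without a call. Tmx1 had 687 and 832 in Eva1 shRNA cells and 874 and 1164 in control cells (-0.56, adjusted p = 0.125), Tmx2 382 and 455 in Eva1 shRNA cells and 560.5 and 458 in control cells (-0.46, adjusted p = 0.129), and Tmx3 99.5 and 117 in Eva1 shRNA cells and 132 and 136 in control cells (-0.50, adjusted p = 0.0791). Tmx4, Nme8 and Txndc2 stayed between 3.91 and 10.4 on every array, Txndc8 was blank on both control arrays and at 1.40 and 2.07 on the Eva1 shRNA arrays, and Nxnl1 had a value of 2.26 on Eva1 shRNA array 2 and was blank elsewhere.

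None of the 3 genes annotated as glutaredoxins, small thiol transferases that use glutathione, was called, beside 26% of all genes. Glrx5, needed for iron-sulfur clusters in mitochondria, had 2009 and 1823 in Eva1 shRNA cells and 1324 and 1177 in control cells (0.47, adjusted p = 0.0637). Glrx2, also mitochondrial, had 648 and 733 in Eva1 shRNA cells and 1160.0 and 846 in control cells (-0.67, adjusted p = 0.0608). The groups of these genes did not overlap and lay in opposite order. Cytosolic Glrx had 192 and 185 in Eva1 shRNA cells and 189.7 and 179 in control cells, with overlapping deposited values (-0.14, adjusted p = 0.483). On the normalised scale the groups did not overlap for any of these 3 genes, beside 66.7% of all genes. Those of Glrx3, grouped above by its older name, did overlap (0.31, limma adjusted p = 0.292).

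Other redox genes, listed without regard to the membership rule, were also mixed. Of 58 tested among 71 listed, 6 were higher and 11 lower (29.3% called, beside 26% of all genes). Of 26 other NRF2 target and partner genes, 3 were higher and 5 lower (30.8% called). Cbr3, a carbonyl reductase, had 316 and 314 in Eva1 shRNA cells and 41.5 and 42.2 in control cells (6.63-fold higher, log2 change 2.73, SE 0.14, adjusted p = 0.00101), and the aldehyde dehydrogenase gene Aldh3a1 1499 and 1369 in Eva1 shRNA cells and 431 and 316 in control cells (1.80, SE 0.19, adjusted p = 0.00379). Other members of this list were lower. The carbonyl reductase gene Cbr1 had 296 and 336 in Eva1 shRNA cells and 602 and 524 in control cells (-0.99, adjusted p = 0.0115), the aldo-keto reductase gene Akr1b8 1053 and 1098 in Eva1 shRNA cells and 2769 and 2047 in control cells (-1.28, adjusted p = 0.00845), and the biliverdin reductase gene Blvrb 561 and 576 in Eva1 shRNA cells and 1165 and 992 in control cells (-1.08, adjusted p = 0.00747). The exporter gene Abcc4 was lower as well, with 19.0 and 22.7 in Eva1 shRNA cells and 39.8 and 33.1 in control cells (-1.01, adjusted p = 0.0186; -0.64 with 16 units added). Each of these 4 lower calls was lost without Eva1 shRNA array 1, with adjusted p of 0.0728, 0.0551, 0.0551 and 0.0981 in the order named, those of Cbr1 and Abcc4 also without control array 1 (0.0558 and 0.0782), and that of Abcc4 with blank cells filled (0.0625).

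Of 18 other glutathione handling genes, 1 was higher and 4 lower, among the lower the cyclotransferase genes Ggct and Chac1. The 27.8% called lies near the 26% of all genes. Ggct, the enzyme that splits gamma-glutamyl dipeptides made from glutathione, had 446 and 417 in Eva1 shRNA cells and 4585 and 3941 in control cells (11.2-fold lower, log2 change -3.49, SE 0.15, adjusted p = 0.000874). Chac1, which degrades glutathione itself and is known as a stress-induced gene, had 249 and 189 in Eva1 shRNA cells and 873 and 1034 in control cells (4.88-fold lower, -2.29, SE 0.19, adjusted p = 0.00217). Ptges, a glutathione-dependent prostaglandin synthase gene, had 35.8 and 37.6 in Eva1 shRNA cells and 113 and 119.9 in control cells (-1.87, adjusted p = 0.00182), and Aifm2, a quinone reductase gene known from ferroptosis, 56.6 and 55.2 in Eva1 shRNA cells and 139 and 124 in control cells (-1.42, adjusted p = 0.00352). The microsomal transferase gene Mgst1 was the higher one, with 1390.5 and 1098 in Eva1 shRNA cells and 381 and 323 in control cells (1.66, SE 0.17, adjusted p = 0.00366). Of 15 thioredoxin-linked and peroxide genes, 2 were higher and 2 lower, and the 26.7% called again lies near the 26% of all genes. They were Park7 (DJ-1, a redox-sensing chaperone; 1.07, adjusted p = 0.00594), Xdh (xanthine dehydrogenase; 1.32, adjusted p = 0.00389, and 0.69 with 16 units added), the copper-binding prion protein gene Prnp (-2.09, adjusted p = 0.00219) and the mitochondrial methionine sulfoxide reductase gene Msrb2 (-0.87, adjusted p = 0.0126). Without an array in turn, Msrb2 lost its call in 3 cases (up to 0.0811, without Eva1 shRNA array 1), and the others named in this paragraph kept theirs.

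**Figure D4:**
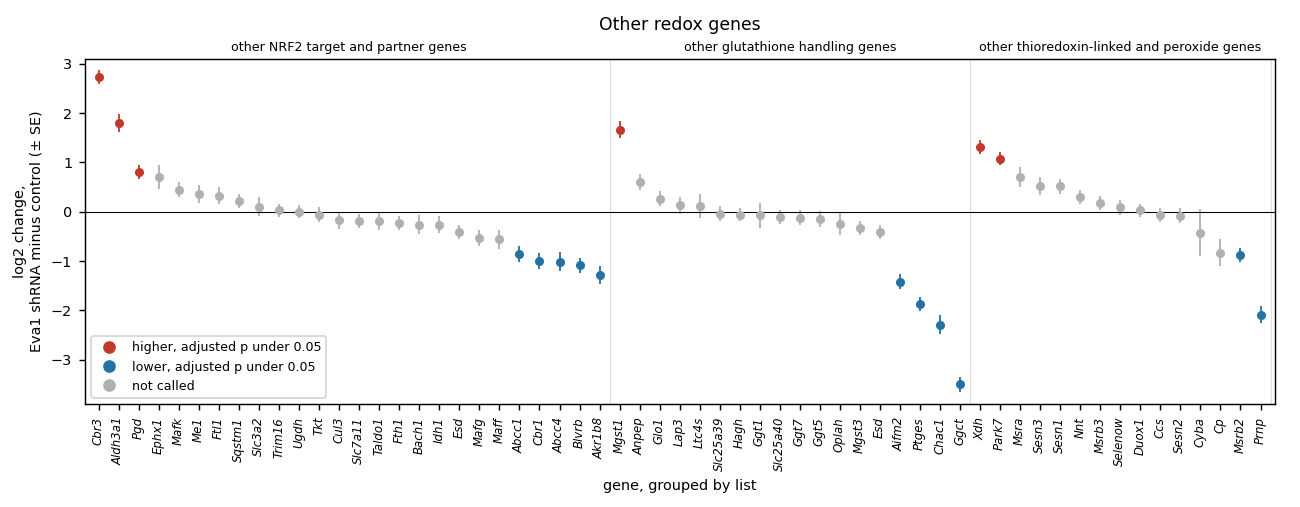
Log2 change (Eva1 shRNA minus control, vertical axis, with SE bars) of the other redox genes tested, in 3 lists along the horizontal axis, with colours for calls as in the plot of changes by role; Esd is in both of the first lists. Cbr3 at 2.73 and Ggct at -3.49 are the extremes.

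Across settings, 9 of the 25 called members kept their call under every alternative: Pir, Nqo1, Gclc, Gstm7, Gstm3, Gsta4 and Txnip among the higher, and Prdx5 and Gstm2 among the lower. The other 16 lost it when at least 1 array was left out, and none of the 25 reversed. Among the 43 uncalled members, 16 passed under at least 1 alternative.

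**Figure D5:**
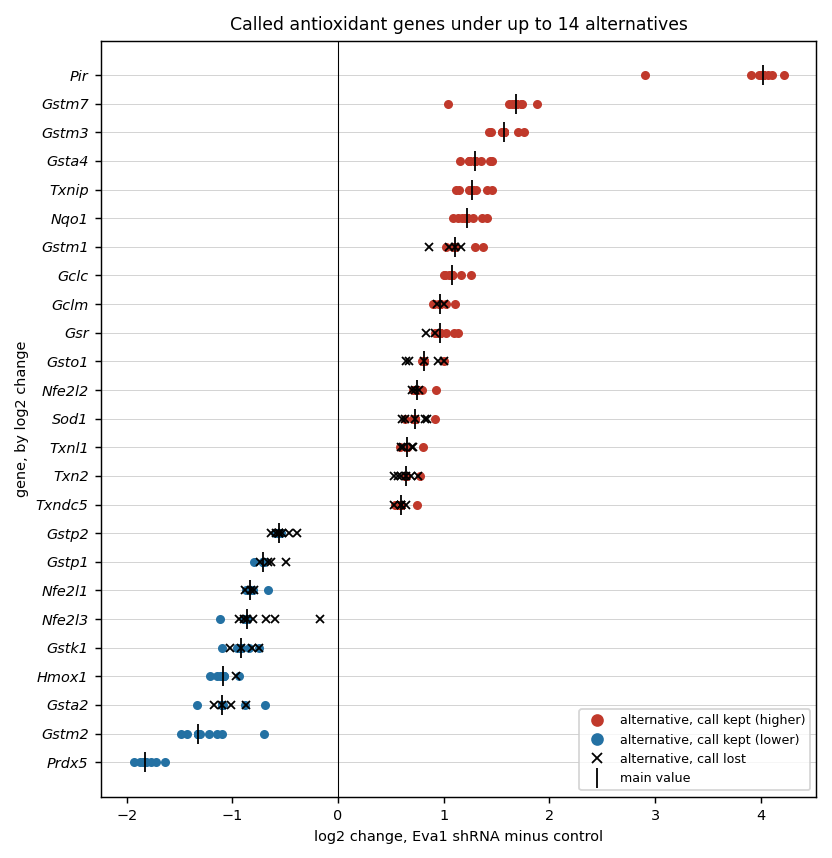
Log2 change (horizontal axis) of each called antioxidant gene under up to 14 alternative settings, with coloured points where the call was kept (red higher, blue lower), crosses where it was lost and a vertical tick for the value reported. No point crosses 0, and 9 genes, among them Pir, Gstm3 and Prdx5, show no cross.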

How the data were processed

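Total RNA of the cells was measured on one-colour Toray 3D-Gene mouse arrays. The deposited intensity values had already been scaled by the authors to an array median of about 25, as the values show, with some cells blank; the background correction is not given in the sources used here, and the number of arrays limits the precision. The 4 arrays were taken as 2 Eva1 shRNA and 2 control samples from the sample titles.

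From these values log2 intensities of the 19199 probes with a value on every array were quantile normalised, the brightest probe stood for a gene (13765 genes), and limma 3.58.1 in R 4.3.3 (lmFit, eBayes, no trend, no block, 2 residual degrees of freedom) gave log2 changes as Eva1 shRNA minus control. P-values were Benjamini-Hochberg adjusted over all genes, with a threshold of 0.05. The code of the fit was run on simulated data with independent normal noise and planted changes, which cannot test how these arrays vary. Symbols come from the platform annotation, updated through RefSeq (10 members renamed), and 6842 probes have no symbol. Values are given by array for called members and for uncalled ones with a brighter group mean above the array median, and the companion genes named are the called ones with the largest change, up to 6 a list. The members, lists and naming rules were chosen with earlier results of these data known. Alternatives were other scalings, filters, moderations, probe rules, a replicate block and leaving out each array. Promoters are from RefSeq tables.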

Additional observations from a re-analysis of the deposited data

How the results depend on the processing

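The limits are few arrays, intensities near the blank range for dim genes, and a background correction that is not known. No called antioxidant gene reversed under any alternative run, and 9 of 25 kept their call under all of them. With 1 array left out in turn, 8 to 10 members were higher and 3 to 6 lower, their median log2 change ran from 5.07e-05 to 0.15, 5 to 7 of the other redox genes were higher and 5 to 10 lower, and over all genes 541 to 1145 were higher and 730 to 1156 lower; such fits have 1 sample in a group, which is assumed to vary like the other group. With the values as the authors scaled them, 22 members were higher and 6 lower, their median was 0.27, 12 other redox genes and 2714 genes in all were higher, and the median of all genes moved to 0.18 from -0.01, with 67.7% of calls higher, against 48.1% after quantile normalisation. Without the dimmest 25% of probes, the median was 0.18 and 12 other redox genes were higher, while calls over all genes rose to 42.5%. With 16 units added or with an intensity trend in the variance, 23 members were higher and 16 lower, and 11 other redox genes were higher. Calls over all genes rose as well, from 26% to 35.7% with the units added and 36.3% with the trend. Filling blank cells left 12 members higher and 5 lower, while calls over all genes fell to 15.4%. With the replicate number as a block, 15 members were higher and 8 lower, with 22.5% of all genes called. Same-numbered arrays did not deviate together (r = -0.0247 over genes, 2 pairs), so the numbers are not shown to pair the samples. In that block fit Gstp2 (adjusted p = 0.0754) and Txndc5 (0.0585) lost their calls. Gstp2 also lost it with every probe tested by itself (0.0567).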
